A study of Mus musculus with 3 samples.

Results

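The NR4A and EGR genes Nr4a1, Nr4a2, Nr4a3, Egr1, Egr2 and Egr3 were described by the open chromatin around them in 3 fractions of mouse CD4+ T cells. The assay was ATAC-seq, which tags accessible DNA with a transposase. A region was a merged set of peaks from the 3 fractions that shared at least 1 bp. A region was given to the 6 genes when one of them was its nearest protein-coding gene within 100 kb, which selected 29 of 57457 regions. No measured level entered this rule, but the 6 genes were chosen with earlier results of these data known. Positions before a gene are on its lower-coordinate side.

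The cells came from 4 wild-type C57BL/6J recipient mice that had been given naive CD4+ T cells from the spleen of CBir1 transgenic mice, whose T cell receptor recognises a bacterial flagellin. The donor cells were labelled with CellTrace Violet, a dye that each division dilutes. Recipients drank 2% dextran sulfate sodium (DSS), which injures the colon lining, for 7 days, and were dosed on days 7, 10 and 13 with FTY720 at 1 mg/kg, a drug that holds lymphocytes in lymph nodes. Colon-draining mesenteric lymph nodes were taken on day 14. The divided fraction held CBir1 cells with diluted dye, the undivided fraction CBir1 cells with bright dye, and the polyclonal fraction the recipients' own CD4+ T cells. All fractions therefore shared the DSS and FTY720 treatment, and an untreated sample was not analysed here. Cells of 2 mice were pooled, in duplicate, and each fraction is represented here by a single peak list. Each fraction thus counts as 1 library and no difference below has a replicate check or a p-value. The labels used here give no ages for the mice.

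Nr4a1, Nr4a2 and Nr4a3 encode orphan nuclear receptors, and Egr1, Egr2 and Egr3 encode zinc finger transcription factors. In T cells both families are immediate early genes: T cell receptor signals induce their transcription quickly, through calcium and MAP kinase pathways that act on factors such as CREB, SRF and NFAT. Egr2, Egr3 and the NR4A receptors are known for their parts in anergy, tolerance and exhaustion, and Egr1 for its part in early activation. Accessibility of their regulatory regions is a different measure from their RNA, which was not measured.

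The start of each gene is where those signals are read, so the promoter stretches that lay under the peaks are shown first. RefSeq promoters (GRCm38.p6, the assembly of mm10) were matched for Nr4a1, Nr4a2, Nr4a3 and Egr2, and Egr1 and Egr3 were not matched. Each line gives the bases before a listed start, 5′ to 3′ on the gene's strand. Capitals mark matches on either strand to the core TGACG of the cyclic AMP response element (CRE), which CREB family factors bind, and to the CArG box, which SRF binds. The stretches are chr15:101266596-101266845 (+ strand) for Nr4a1, chr2:57124004-57124253 (− strand) for Nr4a2, chr4:48045055-48045304 (+ strand) for Nr4a3, and chr10:67537316-67537565 and chr10:67537619-67537868 (+ strand) for 2 starts of Egr2.
Nr4a1: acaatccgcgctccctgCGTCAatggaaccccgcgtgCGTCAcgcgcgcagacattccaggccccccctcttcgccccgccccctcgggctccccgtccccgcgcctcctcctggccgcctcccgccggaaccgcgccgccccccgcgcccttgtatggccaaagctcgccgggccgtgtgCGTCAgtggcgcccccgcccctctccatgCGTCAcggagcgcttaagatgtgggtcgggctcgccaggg
Nr4a2: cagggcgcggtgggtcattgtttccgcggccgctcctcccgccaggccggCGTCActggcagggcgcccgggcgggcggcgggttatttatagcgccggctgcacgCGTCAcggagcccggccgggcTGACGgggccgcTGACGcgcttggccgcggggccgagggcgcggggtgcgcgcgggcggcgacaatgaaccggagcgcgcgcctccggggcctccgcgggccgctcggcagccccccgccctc
Nr4a3: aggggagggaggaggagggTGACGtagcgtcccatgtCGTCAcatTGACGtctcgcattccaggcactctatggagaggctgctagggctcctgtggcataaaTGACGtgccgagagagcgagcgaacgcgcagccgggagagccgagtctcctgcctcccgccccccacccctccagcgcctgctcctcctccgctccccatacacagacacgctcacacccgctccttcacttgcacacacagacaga
Egr2 start at 67537566: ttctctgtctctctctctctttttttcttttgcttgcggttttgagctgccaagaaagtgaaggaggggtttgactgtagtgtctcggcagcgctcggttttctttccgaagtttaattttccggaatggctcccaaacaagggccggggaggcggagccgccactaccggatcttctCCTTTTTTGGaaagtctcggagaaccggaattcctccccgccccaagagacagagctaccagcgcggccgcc
Egr2 start at 67537869: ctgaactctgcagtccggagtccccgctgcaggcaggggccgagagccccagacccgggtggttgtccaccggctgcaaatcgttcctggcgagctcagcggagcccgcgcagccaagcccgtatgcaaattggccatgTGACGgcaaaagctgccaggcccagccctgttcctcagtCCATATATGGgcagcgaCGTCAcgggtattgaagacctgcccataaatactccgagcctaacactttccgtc

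Each of the 3 NR4A stretches held 4 matches to TGACG or its complement CGTCA. Among the 32851 promoter windows of the mouse table, each 300 bases long, 20.8% held at least 1 such match and 0.231% held 4 or more. The Egr2 stretches each held 1 CArG box (CCTTTTTTGG and CCATATATGG), which 1.63% of all windows held, and the stretch before 67537869 also held 2 TGACG matches. The full CRE TGACGTCA (1.79% of windows) contains the core and was not matched in any of these 5 windows. The other patterns not matched in them were the AP-1 site TGANTCA (7.81%), the EGR site GCGTGGGCG (0.612%), its short core GTGGGCG (7.97%), which the longer site contains, the NR4A monomer site AAAGGTCA (1.51%) and the MEF2 site (0.557%). The NFAT core GGAAA, held by 61.3% of windows, occurred in the Nr4a2 and both Egr2 windows. In 1 Egr2 window a match to it overlapped the CArG box. The Sp1 site GGGCGG, held by 35.7%, occurred in all of these windows except the one for the Egr2 start at 67537869. These matches describe letters in the reference and were not measured as binding.

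The 29 regions were mostly strong and mostly common to all fractions. They were called in all 3 libraries in 22 cases (75.9%, Wilson 95% interval 57.9 to 87.8), against 56.9% of all regions. Divided cells alone held 3 of them (10.3%, against 14.3% of all regions) and polyclonal cells alone 2 (6.90%, against 7.49%). Divided and undivided cells shared 1 (3.45%, against 3.96%), and divided and polyclonal cells 1 (3.45%, against 7.07%). Undivided cells alone held 0 (interval 0.0 to 11.7%), against 6.3% of all regions. By position, 11 lay inside or across a member gene (37.9%, against 64.3% of all regions inside their gene), 18 lay on the lower-coordinate side and 0 on the higher-coordinate side. Open regions did lie on the higher-coordinate side within 100 kb, but another gene was nearer to them. At Egr2 the first of these lay 5787 bp past the gene and overlapped Ado. Their median width was 752 bp, against 531 bp over all regions.

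Signal was read as the pileup, the number of fragments stacked at a peak's summit, recovered from the deposited enrichment and −log10 p-value. Over the member regions called in each library, the median pileup was 76 fragments for the divided, 75 for the undivided and 75 for the polyclonal fraction, against 31, 30 and 28 over all regions. These medians are not scaled for depth and run over different sets of regions. Over the 22 member regions called in all 3 libraries they were 115.5, 77.0 and 83.5, against 50, 40 and 41 over all such regions. The local background was also higher at these genes, with medians of 13.1, 11.0 and 12.8 fragments against 3.13, 2.43 and 2.40. The median deposited fold over background was accordingly not above that of all regions, at 5.83, 7.64 and 6.04 against 7.32, 8.58 and 8.01. Thus the summits were tall in fragments but stood on broad local signal. Fragments per region in few cells and in many cells with less opening cannot be told apart in these bulk libraries.

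Depth differed between libraries and sets what a pileup is worth. Over regions called in all 3 libraries the divided library was 1.21 times and the polyclonal library 1.01 times as deep as the undivided one. The lowest background of each library gave 1.5 and 1.07. Scaled pileups and ratios below use the shared regions, and scaling by the lowest background lowers every divided to undivided log2 ratio by 0.31 and every divided to polyclonal one by 0.23. Intervals on ratios are exact binomial 95% intervals that cover counting error only. Peaks at a gene end were present for 12 of 12 T cell marker genes in each library. The same count for 8 B cell markers was 3 in divided cells, 1 in undivided cells and 2 in polyclonal cells, for 8 myeloid markers 2, 3 and 3, for 2 CD8 T cell markers 1, 1 and 1, and for 4 NK and innate markers 1, 1 and 1. The part of such cells in the results was not tested.

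**Figure D1:**
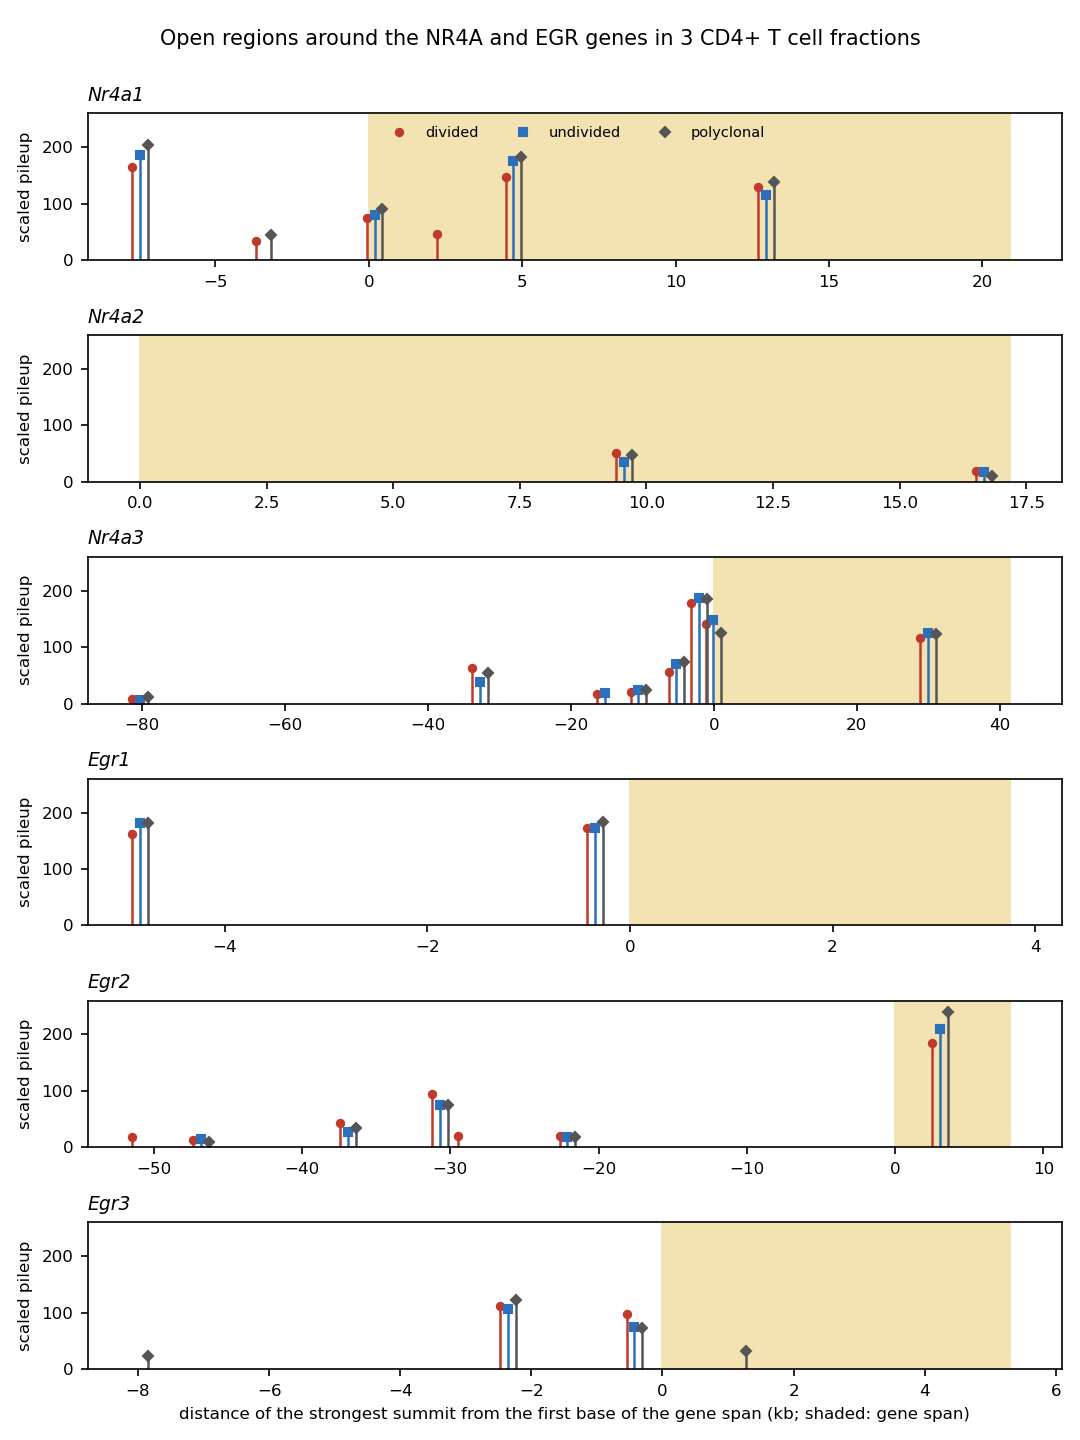
Scaled summit pileup (y axis, fragments at the depth of the undivided library) of every region against the distance of its strongest summit from the first base of the gene span in kb (x axis, gene span shaded), for divided (circles), undivided (squares) and polyclonal (diamonds) cells. The 3 marks of a region are drawn side by side for legibility. The 6 panels show 29 regions, none past the last base of a gene, where the regions within 100 kb were nearer to another gene.

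Nr4a1 encodes Nur77, a widely used reporter gene of T cell receptor signalling, and lies at chr15:101253902-101274795. It had 6 regions, 4 of them called in all libraries. The strongest, chr15:101246064-101246815, lay 7087 bp before the gene and had a pileup of 198 in divided cells, 186 in undivided cells and 206 in polyclonal cells, with summits at the same base. A region inside the gene, chr15:101258158-101258959, had 178, 175 and 184 fragments. The region chr15:101266362-101268534, which holds the listed start at 101266846 and the stretch printed above for Nr4a1, had 155, 115 and 141, and its highest summit lay 10 bases after that start. A further region at the first base of the span, chr15:101253715-101254296, had 90, 79 and 91. Relative to depth, the divided library was lowest at the 7087 bp region, where the divided to polyclonal ratio was 0.806 (0.66 to 0.985). The divided to undivided ratio there was 0.883 (0.719 to 1.08), and at the start region its log2 value was 0.16, with an interval of the ratio from 0.872 to 1.44. Summed over the gene's regions that both libraries called, the divided to undivided ratio was 0.928 (0.826 to 1.04) and the divided to polyclonal ratio 0.834 (0.748 to 0.93).

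The other 2 Nr4a1 regions were weak. The region chr15:101250356-101250785, 3117 bp before the gene, had 41 fragments in divided and 44 in polyclonal cells, with −log10 q of 3.54 and 6.22, and was not called in undivided cells. A region inside the gene, chr15:101256149-101256439, had 55 fragments at a −log10 q of 8.04 and was called only in divided cells. At equal signal it would have had 45.6 fragments in undivided and 46.1 in polyclonal cells, and 32 would have sufficed for a call in each. At the 3117 bp region 34.0 to 43.5 fragments would have been present in undivided cells at equal signal, where 30 to 31 were needed. The expected values thus lay above the threshold at both, with depth taken from the shared regions and counting error left out. Fragments needed for a call, here and below, were worked out from the lowest −log10 p-value of a list, at the summit only. Peak width did not enter, and the narrowest peak of each list was 150 bp. With depth taken from the lowest background, the region inside the gene was no longer counted as one-sided against undivided cells. The cause of the missing calls was not tested.

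Nr4a2, which encodes Nurr1, lies at chr2:57106830-57124003 on the reverse strand and had the least signal of the 6 genes. Its intragenic region, chr2:57114535-57117787, had a pileup of 61 in divided cells, 35 in undivided cells and 48 in polyclonal cells. The region over the listed start at 57124003, chr2:57123233-57124437, which covers the stretch printed above for Nr4a2, had only 24, 18 and 11 fragments. The intragenic region had 1 broad peak in divided cells and 3 peaks in each other library, so its summits lay up to 1345 bp apart and its pileups were not read at 1 position. Its divided to undivided ratio was 1.45 (0.939 to 2.26), and the start region's was 1.11 (0.575 to 2.16), and neither interval excludes equality. The start region lay equally near to LOC105244150. Of the genes with a peak called in undivided cells, 25.5% had a lower top pileup there than Nr4a2. Of those with a peak called in divided cells, 36.8% did.

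Nr4a3, which encodes NOR1, lies at chr4:48045078-48086447 and had 8 regions, the most of the 6 genes. The strongest 3 were nearly level between fractions. The region 1334 bp before the gene, chr4:48042673-48043744, had a pileup of 216 in divided cells, 188 in undivided cells and 187 in polyclonal cells. The start region, chr4:48044467-48045513, which holds the stretch printed above for Nr4a3, had 170, 148 and 127. A region inside the gene, chr4:48074665-48075547, had 141, 126 and 125. Their divided to undivided ratios were 0.953 (0.78 to 1.16), 0.953 (0.76 to 1.2) and 0.928 (0.725 to 1.19), so equal signal lay inside each interval. Scaled by the lowest background they were 0.768 (0.629 to 0.939), 0.768 (0.612 to 0.964) and 0.748 (0.584 to 0.959), and none of these intervals includes equality.

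With the main scaling, the distal Nr4a3 region chr4:48011924-48012733, 32345 bp before the gene, differed most between the CBir1 fractions. It had 76 fragments in divided cells, 38 in undivided cells and 55 in polyclonal cells, and its summits lay within 88 bp of each other. Undivided cells were lowest and polyclonal cells intermediate there. The divided to undivided ratio was 1.66 (1.11 to 2.52) and the divided to polyclonal ratio 1.16 (0.809 to 1.67). Scaled by the lowest background the first ratio was 1.34 (0.894 to 2.03), whose interval includes equality. With that scaling other regions differed more, in the opposite direction, such as Nr4a3 at 5100 bp with 0.631 (0.445 to 0.893). The 32345 bp region was 1 of 23 regions compared, and its interval is not adjusted for that number.

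The remaining Nr4a3 regions were weaker. The region chr4:48039734-48039978, 5100 bp before the gene, had 67, 71 and 75 fragments in divided, undivided and polyclonal cells. The region chr4:48034291-48034775, 10303 bp before it, had 24, 25 and 24. Both were thus level or lower in the deeper divided library. The outermost region, chr4:47964615-47965118, 79960 bp before the gene, had 10, 6 and 12 fragments, too few to rank the fractions. The narrow region chr4:48029729-48029899, 15179 bp before the gene, was called in the CBir1 fractions only, with 21 fragments in divided and 19 in undivided cells and −log10 q of 11.6 and 11.3. At equal signal polyclonal cells would have had 17.6 to 19.2 fragments, and 8 would have sufficed by p-value. The peaks there were 158 bp wide in divided and 171 bp in undivided cells, near the narrowest width of 150 bp. How much lower the polyclonal signal was, if at all, cannot be read from the missing call. It was the only member region that both CBir1 fractions held and polyclonal cells did not.

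Egr1, at chr18:34861207-34864956, had 2 regions and the narrowest range of ratios among the 6 genes. The region over its first base, chr18:34859904-34861919, had a pileup of 207 in divided cells, 173 in undivided cells and 186 in polyclonal cells. The region 4619 bp before the gene, chr18:34854364-34856588, had 195, 182 and 184. The divided to undivided ratios were 0.992 (0.807 to 1.22) and 0.889 (0.722 to 1.09). The undivided to polyclonal ratios were 0.941 (0.761 to 1.16) and 1.00 (0.811 to 1.23). Equal signal lay inside all of these intervals. Scaled by the lowest background the divided to undivided ratios were 0.80 (0.65 to 0.984) and 0.716 (0.582 to 0.881), and neither interval includes equality. The outer region was 1 peak in divided cells and 3 in each other library, but its summits lay within 8 bp.

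Egr2, a factor required for anergy programmes in T cells, lies at chr10:67534469-67542188 and had 7 regions: 1 over 3 of its listed starts and 6 spread from 21721 to 50703 bp before the gene. The start region, chr10:67536095-67537916, covers both Egr2 stretches printed above. It had 222 fragments in divided cells, 210 in undivided cells and 242 in polyclonal cells and was the tallest member region in each library. Relative to depth the divided library was lowest there, with a divided to polyclonal ratio of 0.77 (0.639 to 0.927) and a divided to undivided ratio of 0.877 (0.723 to 1.06).

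At the 2 strongest distal Egr2 regions the divided library was the highest. The region chr10:67503165-67504230, 30239 bp before the gene, had 114 fragments in divided cells, 75 in undivided cells and 76 in polyclonal cells. The region chr10:67497097-67497875, 36594 bp before it, had 51, 27 and 34. The divided to undivided ratios were 1.26 (0.934 to 1.71) and 1.57 (0.964 to 2.60), or 1.02 and 1.26 when scaled by the lowest background. Neither interval excludes equality, and at the second region the summits lay up to 235 bp apart. The weaker regions at 21721 bp (chr10:67512084-67512748) and 46568 bp (chr10:67487565-67487901) had 25, 18 and 18 and 16, 14 and 10 fragments in the same order of libraries, and their divided to undivided ratios were 1.15 (0.604 to 2.24) and 0.948 (0.433 to 2.1).

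A ratio between regions of 1 gene within a library does not depend on its depth. The summed pileup of the 4 distal Egr2 regions called in all libraries was 206 in divided cells, 134 in undivided cells and 138 in polyclonal cells, against the start region's pileup given above. The distal to start ratio was 0.928 (0.764 to 1.13) in divided cells, 0.638 (0.51 to 0.796) in undivided cells and 0.57 (0.459 to 0.706) in polyclonal cells. The divided interval did not overlap the polyclonal one and overlapped the undivided one between 0.764 and 0.796. This measure was chosen after the values had been seen and is a description. It was taken only for Egr2, Nr4a1 and Nr4a3, so how often such a gap occurs over all genes is not known. The pileups in it include local background, which was not removed. The same ratio of the other shared regions to the start region ran differently at Nr4a1 and Nr4a3, and it was not computed for Nr4a2. For Nr4a1 it was 3.01 (2.5 to 3.63) in divided cells, 3.83 (3.11 to 4.74) in undivided cells and 3.41 (2.82 to 4.15) in polyclonal cells. For Nr4a3 it was 3.14 (2.64 to 3.76), 3.07 (2.54 to 3.72) and 3.76 (3.09 to 4.61). The 3 intervals overlapped for Nr4a1 and also for Nr4a3.

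Divided cells alone held 2 further distal Egr2 regions. The outermost, chr10:67483448-67483766, 50703 bp before the gene, had 21 fragments and a −log10 q of 11.7. At equal signal the other libraries would have had 17.4 to 17.6 fragments there, and 8 would have sufficed by p-value. The other, chr10:67505385-67505547, 28922 bp before the gene, had 25 fragments and a −log10 q of 4.16, with 17 needed by p-value and 20.7 to 21.0 present at equal signal. Its peak was 163 bp wide, also near the narrowest width of 150 bp. The 6 distal regions are nearer to, or inside, the gene models Gm51825 and Gm32255, which are not protein-coding in the table, than to Egr2. The same holds for Egr1 at 4619 bp (Gm41689), Egr3 at 7926 bp (Gm33524) and Nr4a3 at 79960 bp, which lies inside Gm52735. Which gene each region serves was not measured.

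Egr3, a close relative of Egr2 with overlapping roles in T cells, lies at chr14:70077317-70082613 and had 4 regions. The region 29 bp before the gene, chr14:70076598-70077288, had 117 fragments in divided cells, 74 in undivided cells and 74 in polyclonal cells. The divided library was highest there also after scaling by the shared regions. The divided to undivided ratio was 1.31 (0.972 to 1.78) and the divided to polyclonal ratio 1.33 (0.983 to 1.80), and both intervals include equality. Scaled by the lowest background these ratios were 1.06 (0.783 to 1.43) and 1.13 (0.839 to 1.54). The region 1350 bp before the gene, chr14:70074495-70075967, had 135, 106 and 123 fragments. Polyclonal cells alone held 2 weak regions. They were chr14:70069173-70069391, with 24 fragments and a −log10 q of 4.58, and chr14:70078325-70078522 inside the gene, with 32 fragments and a −log10 q of 2.37. At the latter divided cells needed 33 fragments for a call and undivided cells 29, and 38.1 and 31.6 would have been present at equal signal.

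**Figure D2:**
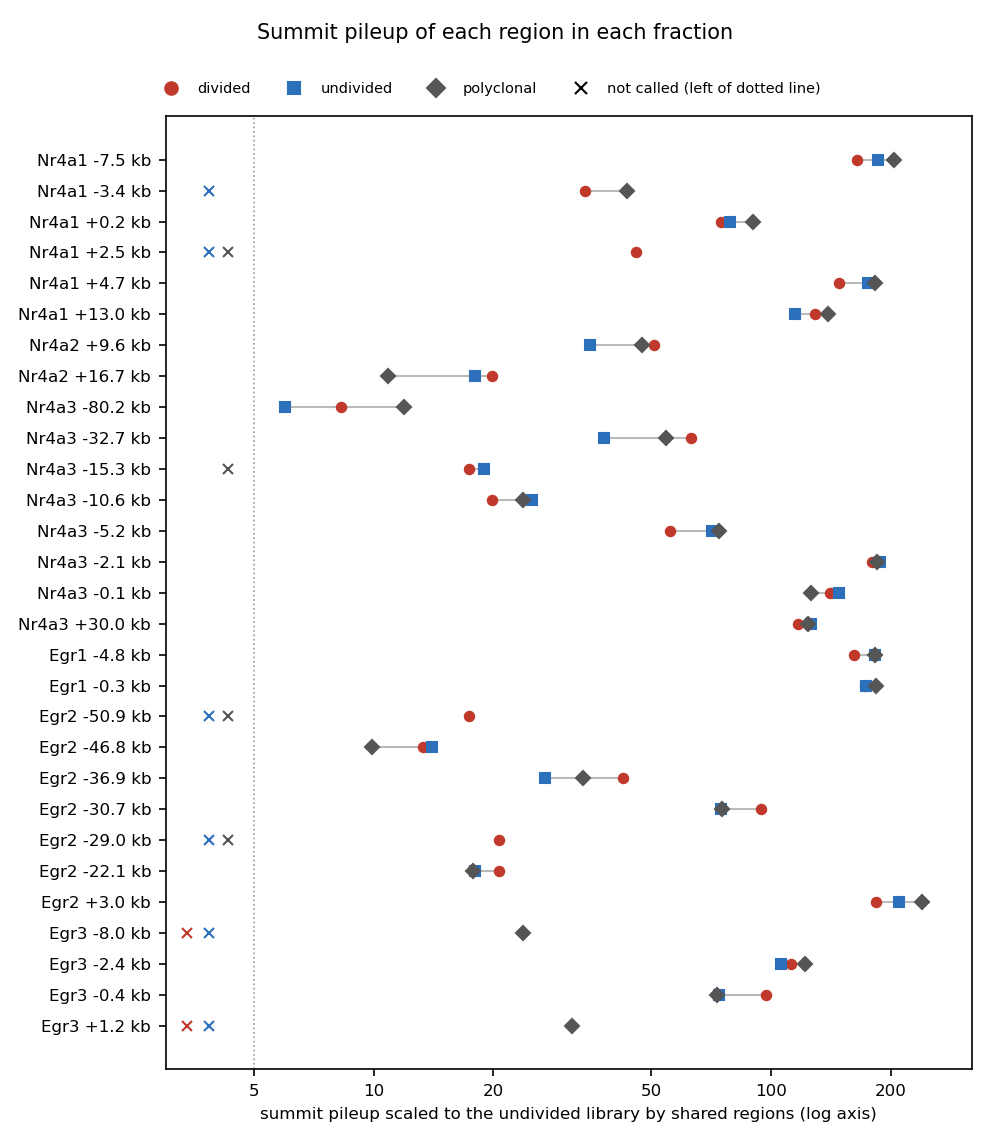
Summit pileup scaled to the undivided library (x axis, log scale, fragments) for each of the 29 regions (y axis, gene and summit distance from the first base of its span in kb), with circles for divided, squares for undivided and diamonds for polyclonal cells. Crosses left of the dotted line mark libraries with no call; the grey line joins the lowest and highest called value, and the widest gaps are at weak and distal regions.

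The comparison of divided with undivided cells addressed how CBir1 cells that had proliferated differed from those that had not. Across the 23 member regions called in both, the median log2 ratio of scaled pileup was −0.07 (range −0.35 to 0.73), with 10 above 0 and 13 below. Over all regions called in both it was 0.00, with quartiles of −0.27 and 0.30. At a 2-fold difference 0 member regions were higher in divided cells, against 4.28% of all regions, and 0 in undivided cells, against 3.44%. At 1.5-fold, a limit added after the values had been seen, 2 member regions were higher in divided cells (Nr4a3 at 32345 bp and Egr2 at 36594 bp), against 11.9% of all regions, and 0 in undivided cells, against 10.5%. Scaled by the lowest background these counts became 0, against 5.51%, and 2, against 23.0%. Of the 23 intervals 1 lay above equality and 0 below it with the main scaling, and 0 above and 9 below it with the lowest background (4 at Nr4a3, 2 at Nr4a1, 2 at Egr1 and the Egr2 start region). At the fold limits the shares of members were therefore near or below those of all regions, at 1.5-fold in either scaling. Member summits were taller than those of all regions, and counting error carries fewer tall summits past a fold limit. No share among regions of like strength was computed. The low shares, here and in the comparisons below, are thus not read as steadier signal at the members. The intervals were not counted over all regions, and tall summits have narrower intervals. The interval counts are thus not read as a result about the members. A call in 1 library with a −log10 q of at least 5 and no call in the other was made for 2 of 29 regions in favour of divided cells (Nr4a1 inside the gene and Egr2 at 50703 bp), against 12.4% of all regions, and for 0 in favour of undivided cells, against 4.94%. When the divided peak also had to pass after its pileup was reduced to the depth of the other library, both remained, against 8.10% of all regions, and with the depth taken from the lowest background 1 remained (Egr2), against 6.44%.

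The comparison of divided with polyclonal cells shares the divided library with the first. The median log2 ratio over 23 member regions was −0.10 (range −0.52 to 0.87), against 0.01 over all regions. No member region was 2-fold higher in divided cells, against 3.58% of all regions, or in polyclonal cells, against 2.24%. At 1.5-fold 1 was higher in divided cells (the Nr4a2 start region, 1.83, interval 0.863 to 4.14, on 24 and 11 fragments), against 11.6%, and 0 in polyclonal cells, against 8.11%. Scaled by the lowest background the counts were 1, against 6.26%, and 3, against 16.6%, and 8 of 23 intervals lay below equality in place of 2. These intervals too were not counted over all regions. One-sided calls favoured divided cells at 3 regions (Egr2 at 50703 bp, Nr4a1 inside the gene and Nr4a3 at 15179 bp), against 9.72% of all regions, and polyclonal cells at 0, against 4.99%. The same 3 were counted under either depth limit, against 6.46% of all regions with the shared regions and 5.13% with the lowest background.

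The comparison of undivided with polyclonal cells shares a library with each of the others. The median log2 ratio over 22 member regions was −0.06 (range −0.98 to 0.73), against 0.02 over all regions. At 2-fold 0 were higher in either library, against 1.38% of all regions for undivided and 1.70% for polyclonal cells. At 1.5-fold 1 was higher in each (the Nr4a2 start region in undivided and Nr4a3 at 79960 bp in polyclonal cells), against 7.13% and 7.25%, and both rested on at most 18 fragments. Scaled by the lowest background the counts were 2, against 9.96%, and 1, against 5.54%. One-sided calls were made for 1 region in undivided cells (Nr4a3 at 15179 bp), against 4.54%, and 1 in polyclonal cells (Nr4a1 at 3117 bp), against 6.74%.

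**Figure D3:**
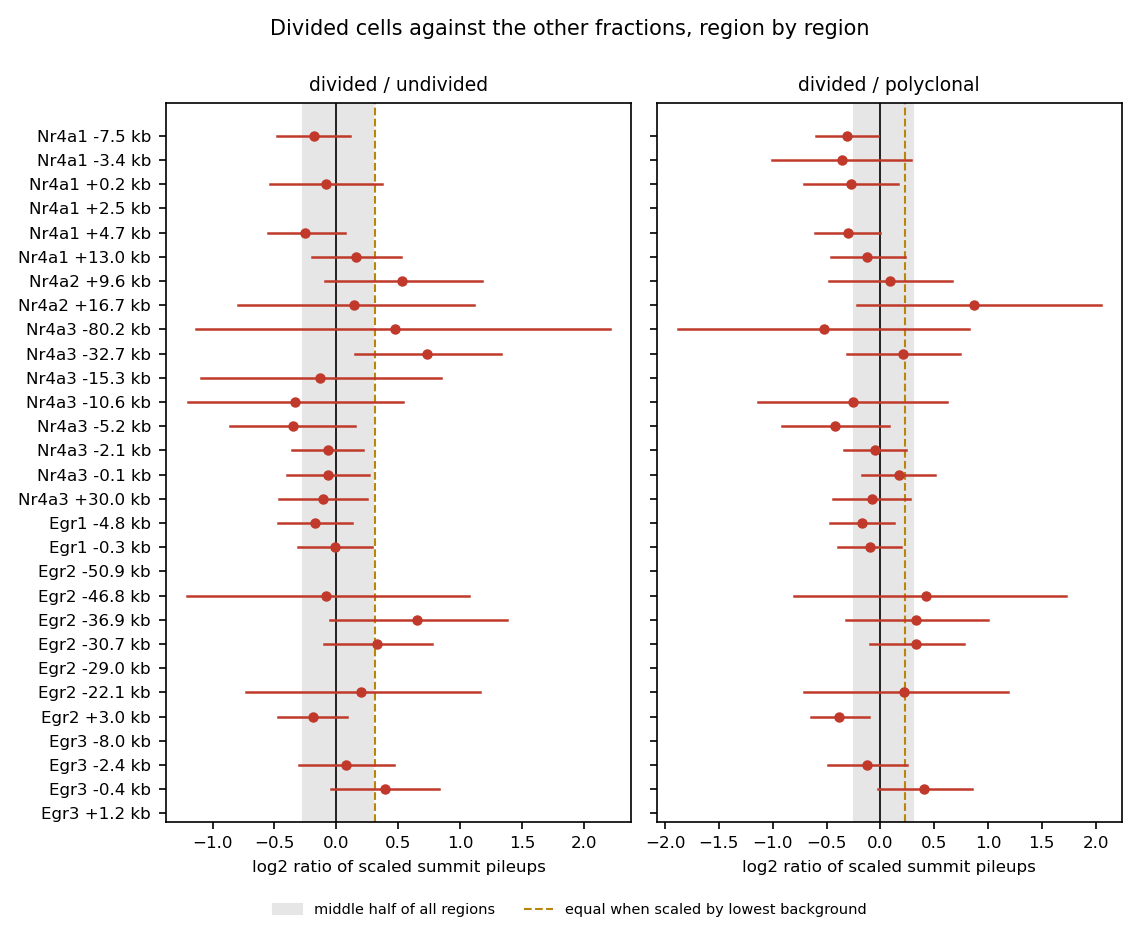
Log2 ratio of scaled summit pileups (x axis) of divided to undivided (left) and divided to polyclonal cells (right) for each member region called in both (y axis), with exact binomial 95% intervals as bars. The grey band spans the quartiles of all regions, −0.27 to 0.30 on the left, and the dashed line marks where signals would be equal when scaled by the lowest background. Only the bar of Nr4a3 at −32.7 kb lies wholly above 0 on the left.

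Whether a member region was common to all libraries followed its strength. All 12 regions whose highest −log10 q was 50 or more, and all 5 between 20 and 50, were called in all 3 libraries, as were 99.6% and 92.8% of all regions of that strength. Between 10 and 20 the count was 4 of 6, against 61.2%, between 5 and 10 it was 1 of 3, against 20.2%, and below 5 it was 0 of 3, against 1.71%. The higher sharing of the member regions thus came with higher strength. Strength was taken from the same calls that define sharing, so part of this rise is built in. The bands below 20 held 6, 3 and 3 members, too few to tell their sharing from that of all regions.

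**Figure D4:**
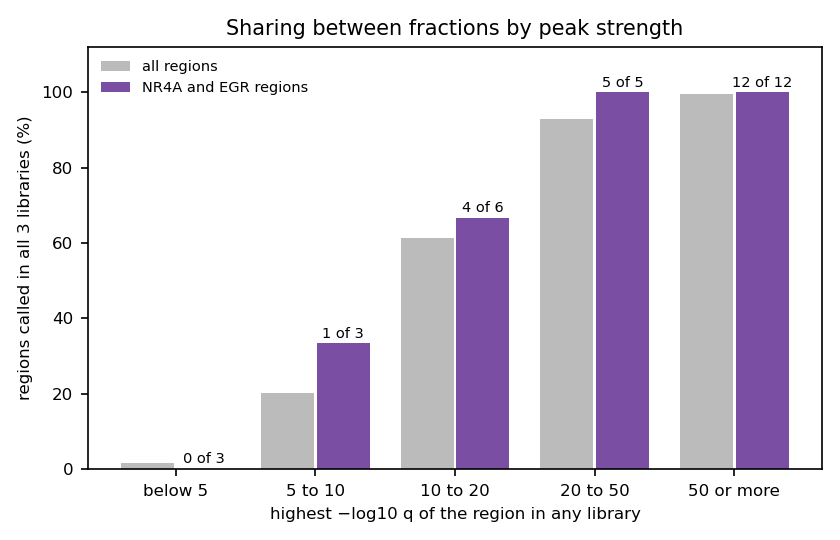
Share of regions called in all 3 libraries (y axis, percent) by the highest −log10 q of the region in any library (x axis), for all regions (grey bars) and member regions (purple bars, with counts). Both sets rise from near 0 below 5 to 99.6% of all regions and 12 of 12 members at 50 or more.

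By level, the genes fell into an order that was similar in the 3 libraries. The highest pileup was at Egr2, with 222 in divided cells, 210 in undivided cells and 242 in polyclonal cells. Nr4a3 (216, 188 and 187), Egr1 (207, 182 and 186) and Nr4a1 (198, 186 and 206) followed, and these 3 were close enough that their order changed between libraries. Egr3 (135, 106 and 123) and Nr4a2 (61, 35 and 48) were lower in every library. Of the genes with a peak called in divided cells, 95.1% had a lower top pileup there than Egr2 and 94.4% than Nr4a3. The share was 93.0% for Egr1, 91.6% for Nr4a1, 73.6% for Egr3 and 36.8% for Nr4a2.

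Summed over the 13 regions called in all 3 libraries (13813 bp), the 3 NR4A genes had 1410 fragments in divided cells, 1210 in undivided cells and 1286 in polyclonal cells. After scaling, the log2 ratio to undivided cells was −0.05 for divided and 0.07 for polyclonal cells. The 9 such regions of the 3 EGR genes (11074 bp) had 1082, 879 and 947 fragments and log2 ratios of 0.03 and 0.09. With the regions called in only some libraries added and a missing call counted as 0, the ratios were 0.04 and 0.10 for NR4A and 0.09 and 0.17 for EGR, so the divided to undivided direction of the NR4A sum depended on those regions. Likeness to other genes was measured as the Euclidean distance over these last 2 ratios, among 3505 genes with at least 5 regions. The nearest genes to the NR4A sum were Sntb1 at 0.00913, Kansl1 at 0.0116 and Tprg at 0.0156, and to the EGR sum Mapk14 at 0.00759, Cytip at 0.00827 and Septin1 at 0.00994. Over regions called in all 3 libraries, an alternative added after the values had been seen, 0 of the 3 NR4A neighbours and 1 of the 3 EGR neighbours (Mapk14) were again among the nearest 3. With 3 libraries such likeness is common: 261 genes lay within 0.1 of the NR4A and 183 within 0.1 of the EGR values.

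The wider pathway was described with a list drawn up together with the choice of the members. It comprised 62 activation genes: partners, other immediate early genes, signalling factors, brakes and targets. It was scored by the net count of one-sided regions, those of divided minus those of undivided cells. Of these genes 30 had a net count above 0, 28 were at 0 and 4 were below it, and over all 14797 genes with a region 26.5% were above and 8.59% below. The listed genes had 9.27 regions each on average and all genes 3.68, so a listed gene had more chances of a one-sided call. Per region, 90 of their 575 were one-sided in divided cells (15.7%, against 12.4% of all regions) and 29 in undivided cells (5.04%, against 4.94%). Among the 6 members, which are not in the list, Egr2 and Nr4a1 had a net count of 1 and the others 0.

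Counts are given by group, with no test between groups. Anergy and tolerance targets were above 0 in 10 of 16 genes, effector targets in 7 of 12, and receptor signal factors in 5 of 8. Other immediate early genes were above 0 in 4 of 13 and signal brakes in 3 of 11. Over all genes with a region the share was 26.5%. Regions per gene were 10, 10.8 and 11.9 in the first 3 groups and 6.85 and 7.91 in the last 2. Groups with more regions per gene had more chances of a one-sided call. One-sided in divided cells were 24 of 160, 29 of 130 (22.3%) and 13 of 95 (13.7%) regions of the first 3 groups. In the last 2 they were 9 of 89 (10.1%) and 10 of 87 (11.5%), against 12.4% of all regions. Receptor signal factors and anergy and tolerance targets were thus nearer the share of all regions than effector targets were. The remaining group, EGR corepressors and partners, was above 0 in 1 of 2 genes. In that group 5 of 14 regions (35.7%) were one-sided in divided cells, all of them at Nab1. Among single genes Ifng, the gene of the cytokine interferon gamma, had 9 regions one-sided in divided and 0 in undivided cells. Icos, which encodes a costimulatory receptor, had 9 and 1, and Nfatc2, a calcium-responsive factor upstream of both families, 5 and 0. Nab1, which encodes a corepressor of EGR factors, also had 5 and 0. Of the list, 4 genes had the lowest net count, −1, among them Ikzf2, which encodes the Treg-associated factor Helios, with 1 and 2, and Dusp6, a MAP kinase phosphatase, and Ier3, an immediate early gene, with 0 and 1 each. Icos had 25 regions in all, Nfatc2 23, Ifng 20 and Ier3 4. Several of these net counts depended on strength and depth. With a −log10 q minimum of 10, Ifng had a net count of 5 in place of 9, Icos 2 in place of 8, Nfatc2 and Nab1 3 in place of 5, and Ikzf2, Dusp6 and Ier3 0. When limited to the depth of the undivided library, Icos had 4 by the shared regions and 3 by the lowest background, and Nfatc2 had 3 by either. At the authors' threshold Nfatc2 had 11, and Ikzf2 and Dusp6 −2.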

How the data were processed

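ATAC-seq libraries of 3 fractions, 1 peak list each, were analysed. Per the submitters' processing notes the tools were bcl2fastq 2.17, cutadapt 1.12, Trimmomatic 0.33, Bowtie2 2.3.2, Picard, SAMtools and MACS2 2.1.0 with the build mm10. Not given in the sources used here are how the duplicate pools entered a list and whether read ends were offset for the transposase (a shift of a few bases in summit position). The deposited lists give the authors' peak score, fold enrichment over local background (a linear ratio), −log10 p-value and −log10 q-value per peak, and the deposited summit lists repeat the summits with −log10 q-values. The lists held 47963 (divided), 41876 (undivided) and 44426 (polyclonal) peaks, with lowest −log10 q-values of 1.31, 1.30 and 1.30. Read totals were not analysed here.

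Summit pileups were solved from the deposited −log10 p-value, read as a Poisson tail, and the deposited fold, read as (pileup + 1) over (background + 1). They came out whole within 0.001 for 99.996%, 99.995% and 99.993% of peaks, and the method was tested on simulated data. Peaks sharing 1 bp were merged into 57457 regions, 54435 of them within 100 kb of a RefSeq (GRCm38.p6) protein-coding gene span. The table gives no exons, so exons, introns and UTRs were not told apart. The 1 tied region was given to the member. The members and lists were chosen with earlier results of these data known. All 6 members are named. Of the 62 listed genes, the 4 highest and 3 lowest net counts of divided against undivided one-sided regions (ties by number of regions, then symbol) are named, and for likeness the 3 nearest genes per family. Python 3.11.15, pandas 2.3.3 and SciPy 1.17.1 were used. Alternatives changed the gene assignment, call threshold, depth limit, scaling and measure.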

Additional observations from a re-analysis of the deposited data

How the results depend on the processing

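No paired analysis was possible because each fraction had 1 library, and for the same reason no library could be left out. Taking every region within 100 kb of a member, also where another gene was nearer, gave 95 regions in place of 29, 64 in place of 22 called in all 3 libraries, net one-sided counts (calls for the first library minus those for the second) of 14 in place of 2 for divided against undivided and 13 in place of 3 for divided against polyclonal, and median log2 ratios of 0.05 in place of −0.07 and 0.06 in place of −0.10. The net count of 2 became 1 with a 20 kb window, with all annotated genes, at a −log10 q of 10 and when limited in depth by the lowest background, and 4 at the authors' threshold. For undivided against polyclonal the net count of 0 became −2 at the authors' threshold and 1 at a −log10 q of 10. Scaling by the lowest background gave medians of −0.38 (divided to undivided) and −0.33 (divided to polyclonal), with all regions at −0.31 and −0.22. The causes were not tested. The other 33 of 48 alternative values stayed within 1.5 times the main count, or within the counting error of the median (0.08 to 0.09 on the log2 scale), though not at the same value: the region count became 21 with a 20 kb window and 20 with all annotated genes, and the undivided to polyclonal median became 0.02 in place of −0.06 by the lowest background. Regions with summits within 100 bp, an alternative chosen after seeing the data, gave medians of −0.09 and −0.12. Of 23 divided to undivided intervals, 1 excluded equality with the main scaling and 9 with the lowest background. These intervals were not counted over all regions and are not read as a result about the members.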

Other observations

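Around the 6 genes lay a further 66 regions that were within 100 kb of a member but nearer to another gene. All 3 libraries called 42 of them (63.6%, against 56.9% of all regions). Calls with a −log10 q of at least 5 in divided and none in undivided cells were made for 13 (19.7%) and the reverse for 1 (1.52%), against 12.4% and 4.94% of all regions. Against polyclonal cells the counts were 10 (15.2%) and 0, against 9.72% and 4.99% of all regions. By locus, 6 of the 22 neighbouring regions of Nr4a1 were one-sided in divided against undivided cells, 3 of 17 at Egr1, 2 of 9 at Egr2 and 2 of 14 at Egr3, while the 2 neighbouring regions of Nr4a2 and the 2 of Nr4a3 were called in all libraries. The neighbouring genes of the 6 regions at Nr4a1 were Grasp, Acvr1b, Smim41 and Krt80. Whether these regions act on the members was not measured.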
